A study of Homo sapiens with 6 samples.

Results

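Replication-dependent histone genes encode the core histones H2A, H2B, H3 and H4, around which DNA is wrapped in the nucleosome, and the linker histone H1, which binds where DNA enters and leaves it. Here they were taken as H1-1 to H1-5 and every gene symbol that starts with H2AC, H2BC, H3C or H4C. This gave 60 of the 17687 genes measured, with 5 genes of class H1, 14 of H2A, 17 of H2B, 9 of H3 and 15 of H4. Each had 1 probe set. By the RefSeq gene table, 48 lie on chromosome 6, 11 on chromosome 1 and 1 (H4C16) on chromosome 12. The rule used symbols and no measured value.

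The arrays profiled SH-SY5Y, an established human neuroblastoma line of sympathetic lineage, with 3 samples labelled 15EN and 3 labelled VC. The 15EN cells were given the bioactive compound, which the protocol text sets at 15 µM and the series title names as eurycomanone, a compound of Eurycoma longifolia root. The VC cells were the vehicle control. Cells of both groups were differentiated with all-trans retinoic acid (atRA), over 96 h by the protocol text, and replicates 1, 2 and 3 of each group came from passages 33, 34 and 35 by title. The same treatment text stands with every sample, VC included, and the descriptions name passage 33 throughout. All 6 samples are of a single cell line, and nothing in the labels beyond the passage says that samples of a group were separate cultures, so the p-values cover only how far these arrays vary, and that variation may be technical.

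These genes are unusual in having no introns and in making mRNAs that mostly end in a conserved stem-loop instead of a poly(A) tail. The stem-loop binding protein SLBP holds that structure, the U7 small nuclear ribonucleoprotein guides the cut that forms the end, and NPAT drives transcription at the histone locus body when cyclin E and CDK2 start S phase. Histone mRNA is normally made during DNA synthesis and degraded when synthesis stops. The labelling kit for whole-transcript arrays is designed to prime along the transcript, so that mRNA without a tail is also labelled. In bulk samples a change in the share of cells in S phase and a change in mRNA per cell cannot be told apart.

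The region before the start site differs between histone classes. RefSeq promoter sequences (GRCh38.p14) were at hand for 56 of the 60 genes, and the 250 bases before the start are shown for the linker histone gene of largest difference, for an H2B gene with the octamer, for the histone gene of largest difference in all classes, and for H4C14 and H4C15, whose 250 bases were identical at 250 positions. Capitals mark exact matches, on either strand, to the octamer ATTTGCAT, the CCAAT box (CCAAT, or ATTGG on the other strand), the TATA box (TATAAA, or TTTATA), the AC box AAACACA and the E2F motifs TTTGGCGC and TTTCGCGC. In H2BC12 TTTATA and TATAAA overlap in 1 place.
H1-4, chr6:26156079-26156328, plus strand: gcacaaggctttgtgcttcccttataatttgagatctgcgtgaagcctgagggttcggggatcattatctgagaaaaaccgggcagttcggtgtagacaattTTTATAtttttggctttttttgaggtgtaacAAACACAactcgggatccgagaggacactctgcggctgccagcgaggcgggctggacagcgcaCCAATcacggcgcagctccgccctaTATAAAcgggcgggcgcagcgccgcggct
H2BC12, chr6:27146859-27147108, minus strand: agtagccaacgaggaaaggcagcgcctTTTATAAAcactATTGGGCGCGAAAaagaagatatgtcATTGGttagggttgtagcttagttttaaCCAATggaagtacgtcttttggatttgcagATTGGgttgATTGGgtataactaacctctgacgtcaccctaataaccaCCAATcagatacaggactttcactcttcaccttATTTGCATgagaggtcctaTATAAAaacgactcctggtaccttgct
H2BC26, chr1:228457853-228458102, plus strand: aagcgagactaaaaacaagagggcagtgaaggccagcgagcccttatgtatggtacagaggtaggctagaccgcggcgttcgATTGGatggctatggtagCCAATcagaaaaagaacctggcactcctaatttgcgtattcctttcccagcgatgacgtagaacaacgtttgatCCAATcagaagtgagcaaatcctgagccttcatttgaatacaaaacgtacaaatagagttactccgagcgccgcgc
H4C15, chr1:149861160-149861409, minus strand (H4C14, chr1:149832407-149832656, plus strand, has the same letters): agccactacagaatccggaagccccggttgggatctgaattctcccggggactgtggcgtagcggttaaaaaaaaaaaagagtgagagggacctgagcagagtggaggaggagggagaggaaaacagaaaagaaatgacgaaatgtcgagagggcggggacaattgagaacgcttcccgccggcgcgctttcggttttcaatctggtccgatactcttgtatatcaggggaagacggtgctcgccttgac
The octamer was found before 14 of 17 H2B and 8 of 13 H2A genes and before no H1, H3 or H4 gene, against 1.63% of all 35116 promoters. The AC box was found before all 5 H1 genes and no other histone gene, against 4.82% of all promoters. CCAAT stood before all 5 H1, 13 H2A, 17 H2B and 8 H3 genes in the table but before 3 of 13 H4 genes, against 32% of all promoters. TATAAA was found before 39 of the 56 genes (10.7% of all promoters) and an E2F motif before 9 (0.968%). These matches describe letters and not bound sites.

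The values are the authors' deposited log2 signals, so a difference of 1 is a 2-fold change. Array medians were 7.67 to 7.75 in 15EN and 7.69 to 7.73 in VC. A value is called dim below where it lies under the 90th percentile of the 612 negative controls of its array (7.41 to 7.51 in 15EN, 7.55 to 7.99 in VC). By this measure 44 of the 60 histone genes were above the negative controls in every array and 8 were dim in all 6. 15EN replicate 3 stood apart. On the first principal component (59.8% of the variance) it lay at -30.8, the other 15EN arrays scored -71.3 and -69.4, VC scores ran from 56.1 to 58.0, and results are therefore also given without it. Of the sympathetic neuroblastoma markers, HAND2, GATA3, ISL1, TBX2, ELAVL4 and STMN2 were above the negative controls in every array, whereas TH and CHGA were dim in every array. Of 12 measured, 0 were higher and 6 lower in 15EN by limma (0% and 50%, against 12.3% and 9.09% of all genes). Their summed linear signal was 103200 to 123600 in 15EN and 143700 to 182500 in VC. Substrate-adherent neuroblastoma markers had 5 higher and 4 lower of 14, or 35.7% and 28.6% (summed linear signal 63360 to 98340 in 15EN, 149000 to 169200 in VC). Fibroblast markers had 0 higher and 2 lower of 8, or 0% and 25% (22380 to 30390 in 15EN, 22350 to 29140 in VC). Schwann cell and glia markers had 0 higher and 0 lower of 7 by limma, 1 of them at an unadjusted p under 0.05 (1087 to 1744 in 15EN, 1814 to 2461 in VC). Of these, SOX10, S100B, ERBB3, FOXD3, GFAP and CDH19 were dim in every array. Blocking by passage number also called lower the sympathetic marker GATA2 (adjusted p = 0.0324, against 0.0518 unblocked), the substrate-adherent marker FN1 (0.00285, against 0.11) and the fibroblast marker LUM (0.0378, against 0.121). The part of these markers in the histone result was not tested.

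The design sets compound against vehicle in differentiated cells, and here asks how histone transcripts differ. Some histone genes of each class rose in 15EN cells, and most did not pass the test. Of the 60, 22 were higher and 0 lower at an adjusted p under 0.05 (limma, adjusted over all 17687 genes), or 36.7% higher against 12.3% of all genes and 0% lower against 9.09% of all genes. Their median log2 difference was 0.68, against 0.01 for all genes, and 56 of 60 differences were positive. The 22 had adjusted p from 0.000464 to 0.0402, and 12 of them differed by at least 2-fold. In all 22 every 15EN array lay above every VC array. A positive difference at all 3 replicate numbers follows from that and adds no support. In 29 genes all 15EN arrays lay above all VC arrays (48.3%, against 19.7% of all genes), and in 1, H1-5, all lay below (1.67%, against 16.6%). These counts describe a set chosen with earlier results of these data known and carry no test of the set.

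**Figure D1:**
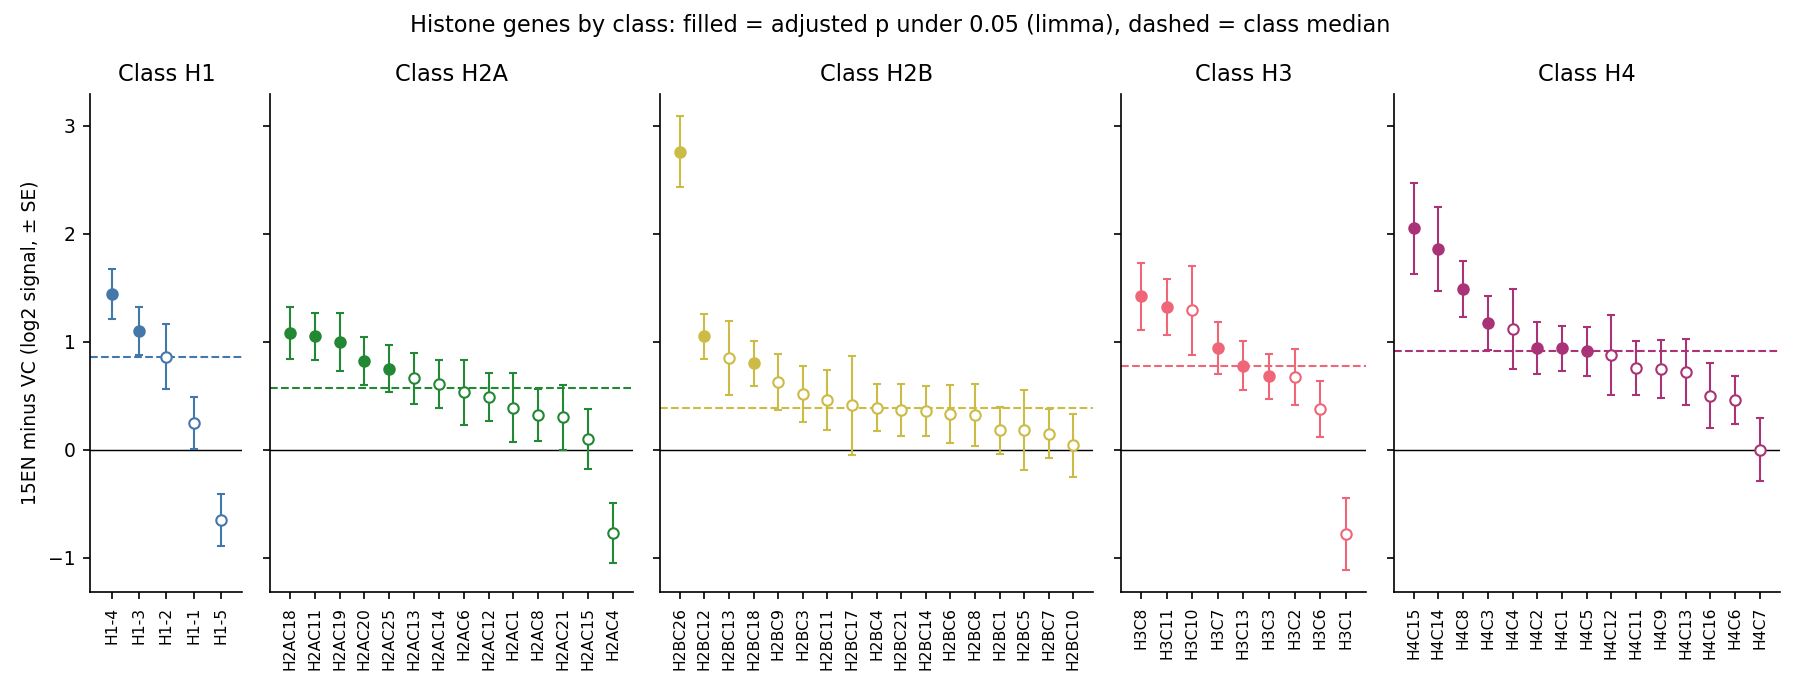
Difference 15EN minus VC in log2 signal (y axis, bars are SE of the limma fit) for each of the 60 histone genes, grouped by class and ordered by size. Filled points passed adjusted p 0.05, dashed lines are class medians: H2BC26 stands highest at 2.76, and H1-5, H2AC4 and H3C1 lie below 0 without passing.

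The count depended on the arrays. It was 38 higher and 0 lower without 15EN replicate 3, and 13 to 15 higher without any other single array (13 without 15EN replicate 1 or VC replicate 1, 14 without 15EN replicate 2, 15 without VC replicate 2 or 3). The share of all genes called higher moved with it, to 18.2% without 15EN replicate 3 and to between 7.36% and 8.47% without any other array. In 12 genes the call held without any 1 array: H1-3, H1-4, H2AC11, H2AC18, H2BC12, H2BC26, H3C8, H3C11, H4C3, H4C8, H4C14 and H4C15. 15EN replicate 3 was the lowest of the 15EN arrays in 54 of the 60 genes, and VC replicate 1 the lowest of the VC arrays in 44. The median difference between arrays of the same number was 1.07 for replicate 1, with 58 of 60 differences positive, 0.79 for replicate 2 (51 positive) and 0.21 for replicate 3 (41 positive). When every array was scaled to equal hybridization controls, all differences were raised by a constant and the median gene stood at 0.88. The histone median was then 1.55 and its distance from the median gene stayed at 0.67, with 57 of 60 genes called higher, against 68.7% of all genes. That scaling moved the split of calls over all genes to 12150 higher and 437 lower (96.5% higher), against 2179 and 1608 (57.5% higher) as deposited. Directions in the text are relative to the median gene.

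**Figure D2:**
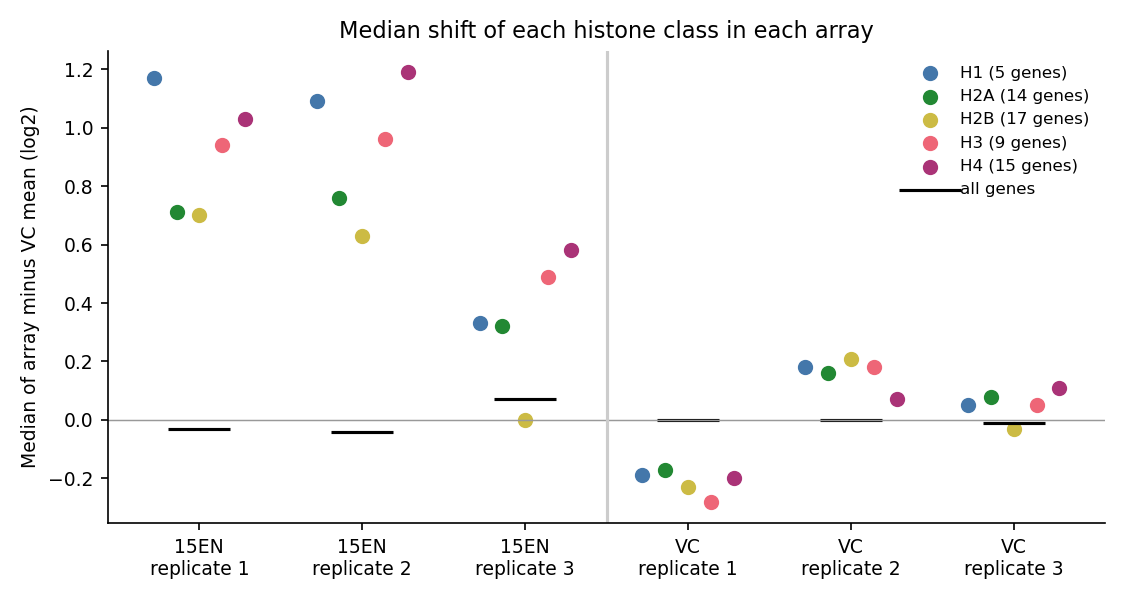
Median over the genes of each class of the array's log2 signal minus the VC mean of the gene (y axis), for the 3 15EN arrays and the 3 VC arrays (x axis). Black bars are the median of all genes; the classes lie between 0.63 and 1.19 in 15EN replicates 1 and 2, between 0.00 and 0.58 in 15EN replicate 3, and between -0.28 and 0.21 in VC.

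Class H4 is part of the tetramer on which the nucleosome is built. Its median difference was 0.91, close to the 0.86 of class H1, and the order of these classes turned without 15EN replicate 3 (1.04 for H4, 1.20 for H1) and without VC replicate 2 (0.90 for H4, 0.95 for H1). Its genes had 7 of 15 higher and 0 lower (46.7% and 0%, against 12.3% and 9.09% of all genes). Without 15EN replicate 3, 13 were higher, against 18.2% of all genes. The H4 genes, H4C7 apart, encode the same protein. The signal of H4C15 was 13.33, 13.62 and 11.69 in 15EN replicates 1, 2 and 3, against 10.79, 10.75 and 10.94 in VC replicates 1, 2 and 3. The groups did not overlap, but 15EN replicate 3 was much nearer to VC than the other 15EN arrays. The difference was 2.05 ± 0.42 (SE; 4.15-fold, adjusted p = 0.00679) and 2.65 without that array. H4C14 had 13.41, 13.67 and 11.93 in 15EN and 11.02, 11.21 and 11.19 in VC, a difference of 1.86 ± 0.39 (adjusted p = 0.00737). Since H4C14 and H4C15 are near copies in a duplicated stretch of chromosome 1, their probe sets may read both, and the pair cannot be counted as independent.

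H4C8 on chromosome 6 had 14.39, 14.21 and 13.54 in 15EN, against 12.35, 12.65 and 12.69 in VC. Every 15EN array was above every VC array by at least 0.86, and the difference was 1.49 ± 0.26 (SE, n = 3 per group; 2.80-fold, adjusted p = 0.00301 by limma). H4C3 had 16.91, 17.15 and 16.38 in 15EN and 15.44, 15.75 and 15.74 in VC, a difference of 1.17 ± 0.25 (adjusted p = 0.00767). H4C5 had 17.51, 17.47 and 17.18 in 15EN and 16.17, 16.73 and 16.53 in VC (0.91 ± 0.23, adjusted p = 0.0171). H4C1 had 8.28, 8.02 and 7.84 in 15EN and 7.06, 7.02 and 7.24 in VC (0.94 ± 0.21, adjusted p = 0.0104). H4C2 had 7.67, 7.65 and 7.30 in 15EN and 6.20, 6.74 and 6.87 in VC (0.94 ± 0.24, adjusted p = 0.0196). H4C1 and H4C2 were dim in all VC arrays, so the size of their difference is uncertain. H4C1 lost the call without VC replicate 2, H4C5 without 4 of the arrays and H4C2 without 4. Of the genes that did not pass, H4C4 had the largest difference (1.12 ± 0.37, adjusted p = 0.0553). Blocked by passage number it passed (adjusted p = 0.0481), though its groups overlapped. H4C9, H4C11, H4C12 and H4C13 had differences of 0.72 to 0.88 and adjusted p of 0.0516 to 0.136. H4C6 (0.46), H4C16 (0.50) and H4C7 were dim in every array, and H4C7, which encodes a divergent H4, differed by -0.00 ± 0.29 (adjusted p = 0.996).

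Class H3, the partner of H4 and the main carrier of methylation marks on its tail, had a median difference of 0.78 (0.93 without 15EN replicate 3). Of its 9 genes 5 were higher and 0 lower (55.6% and 0%, against 12.3% and 9.09% of all genes). Without that array 7 were higher, against 18.2% of all genes. H3C11 had 16.02, 16.02 and 15.32 in 15EN replicates 1, 2 and 3, against 14.19, 14.70 and 14.53 in VC. The difference was 1.32 ± 0.26 (2.49-fold, adjusted p = 0.00534). H3C8 had 12.76, 12.67 and 11.91 in 15EN and 10.46, 11.21 and 11.42 in VC, a difference of 1.42 ± 0.31 (adjusted p = 0.00961). The groups stood apart in both genes, by 0.62 in H3C11 and 0.49 in H3C8, and 15EN replicate 3 was the lowest 15EN array in each. H3C7 had 12.58, 12.62 and 12.33 in 15EN and 11.17, 11.75 and 11.78 in VC (0.94 ± 0.24, adjusted p = 0.0171). H3C13 on chromosome 1 had 12.42, 12.49 and 12.02 in 15EN and 11.64, 11.72 and 11.23 in VC (0.78 ± 0.23, adjusted p = 0.0367). Their groups did not overlap, nor did those of H3C3 (0.68 ± 0.21, adjusted p = 0.0402). All 3 lost the call without 15EN replicate 1, without 15EN replicate 2 or without VC replicate 1, and H3C13 and H3C3 also without VC replicate 2 or 3. H3C3 had 7.49, 7.49 and 7.22 in 15EN and 6.54, 6.85 and 6.76 in VC, and was dim in every VC array and in 2 of the 15EN arrays. H3C10 had a difference of 1.29 ± 0.41 at adjusted p = 0.0504, which was 0.0177 when blocked by passage number. Its groups overlapped, and it was dim in every VC array and in 1 of the 15EN arrays. H3C2 (0.67, adjusted p = 0.0933) and H3C6 (0.38, adjusted p = 0.371) did not pass. H3C1 ran the other way, at 7.80, 8.09 and 7.15 in 15EN against 7.91, 9.07 and 8.40 in VC. Its groups overlapped and the difference of -0.78 ± 0.33 did not pass (adjusted p = 0.133), and it was 0.09 after scaling to the hybridization controls.

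Of the 5 linker histones 2 were higher and 0 lower (40% and 0%, against 12.3% and 9.09% of all genes). H1-4 had 16.52, 16.80 and 16.50 in 15EN, against 14.87, 15.43 and 15.22 in VC, a difference of 1.44 ± 0.23 (2.71-fold, adjusted p = 0.00177). The 15EN arrays lay within 0.30 of each other and stood 1.07 above the highest VC array. H1-3 had 12.31, 12.04 and 11.80 in 15EN and 10.88, 11.13 and 10.85 in VC, a difference of 1.10 ± 0.22 (adjusted p = 0.00577). H1-2 had 11.35 and 11.41 in 15EN replicates 1 and 2 but 10.37 in replicate 3, against 9.89 to 10.35 in VC, and its difference of 0.86 ± 0.30 did not pass (adjusted p = 0.0666). H1-5 was the histone gene whose 15EN arrays all lay below VC, at 14.90, 14.79 and 14.30 in 15EN against 15.12, 15.54 and 15.28 in VC. Its difference of -0.65 ± 0.24 did not pass (adjusted p = 0.0802), but did so once a brightness trend was taken out (-0.73, adjusted p = 0.0436) and with a trended robust prior (-0.65, adjusted p = 0.0379). Scaled to the hybridization controls it was 0.22. H1-1 was dim in every array and differed by 0.25 ± 0.24 (adjusted p = 0.531). The class median was 0.86, and 1.20 without 15EN replicate 3.

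**Figure D3:**
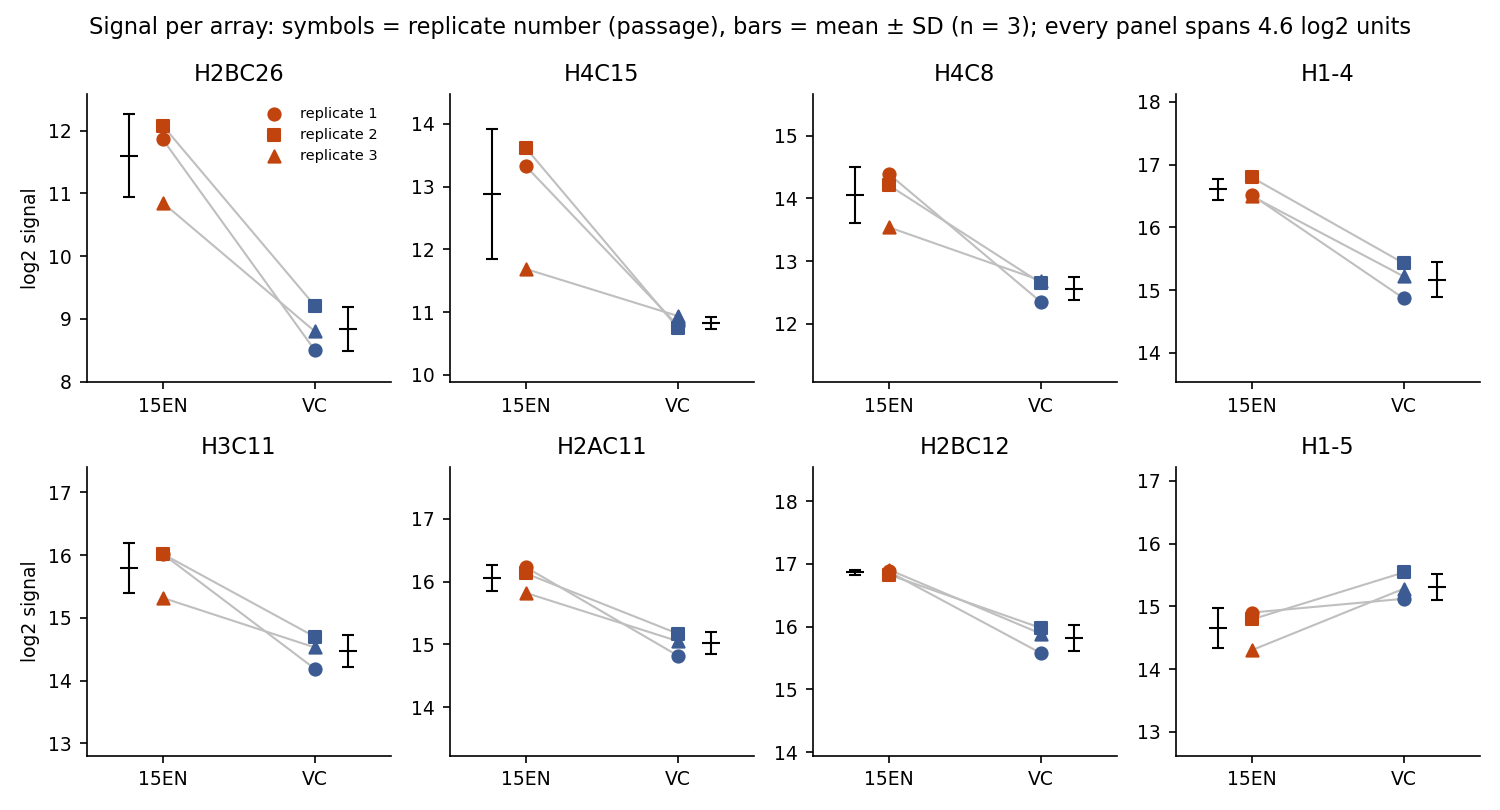
Log2 signal (y axis) of 8 histone genes in the 15EN and VC arrays (x axis), with a symbol for each replicate number, grey lines joining arrays of the same number, and bars for the mean ± SD (n = 3). 7 genes are higher in every 15EN array than in any VC array, by steps from 0.62 (H3C11) to 1.64 (H2BC26), and H1-5 is lower in every 15EN array.

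Class H2A, which forms a dimer with H2B at the nucleosome surface, had a median difference of 0.57 (0.75 without 15EN replicate 3). Of its 14 genes 5 were higher and 0 lower (35.7% and 0%, against 12.3% and 9.09% of all genes). H2AC11 had 16.23, 16.13 and 15.82 in 15EN, against 14.82, 15.17 and 15.05 in VC. The difference was 1.05 ± 0.22 (2.06-fold, adjusted p = 0.00693). H2AC18 and H2AC19 encode the same protein from copies in the duplicated stretch of chromosome 1. H2AC18 had 15.30, 15.40 and 14.77 in 15EN and 13.90, 14.25 and 14.10 in VC, a difference of 1.08 ± 0.24 (adjusted p = 0.00921). H2AC19 had 15.03, 15.25 and 14.31 in 15EN and 13.67, 14.08 and 13.86 in VC, a difference of 1.00 ± 0.27 (adjusted p = 0.0246). Both followed the same order of arrays, and their probe sets may share transcripts. H2AC20, also on chromosome 1, had 15.82, 15.62 and 15.28 in 15EN and 14.61, 14.82 and 14.82 in VC (0.82 ± 0.22, adjusted p = 0.0237). H2AC25 had a difference of 0.75 ± 0.22 (adjusted p = 0.0372). Together with H2AC19 these genes lost the call without any 1 array other than 15EN replicate 3. H2AC13 (0.66) and H2AC14 (0.61) had separate groups and adjusted p of 0.0756 and 0.0768. H2AC4 had 10.37, 10.13 and 9.85 in 15EN against 10.31, 11.22 and 11.14 in VC, and its difference of -0.77 ± 0.28 did not pass (adjusted p = 0.0784). It passed on quantile-normalized values (-0.89, adjusted p = 0.0412), once a brightness trend was taken out (-0.93, adjusted p = 0.0335) and without VC replicate 1 (adjusted p = 0.0276), and was 0.10 when arrays were scaled to the hybridization controls. H2AC6 (0.53), H2AC12 (0.49), H2AC8 (0.32), H2AC21 (0.30) and H2AC15 (0.10) had adjusted p of 0.163 to 0.864. H2AC1, a testis form, was dim in every array and differed by 0.39 ± 0.32 (adjusted p = 0.477).

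Class H2B held the gene of largest difference, and its class median was the lowest with all arrays and without any 1 array. All 17 differences were positive, with a median of 0.39 (0.60 without 15EN replicate 3), and 3 passed (17.6%, against 12.3% of all genes). Without that array 8 passed, against 18.2% of all genes called higher. H2BC26, an H2B gene on chromosome 1 away from the large cluster of chromosome 6, had 11.86, 12.08 and 10.85 in 15EN replicates 1, 2 and 3, against 8.50, 9.21 and 8.80 in VC. All VC values were above the negative controls, and every 15EN array was at least 1.64 higher than any VC array. The difference was 2.76 ± 0.33 (6.77-fold, adjusted p = 0.000464), and 2.52 to 3.13 when each array was left out in turn. H2BC12 had 16.88, 16.83 and 16.91 in 15EN and 15.58, 15.98 and 15.89 in VC, the tightest 15EN group among the named histone genes (SD 0.04). Its difference was 1.05 ± 0.21 (2.08-fold, adjusted p = 0.00534). H2BC18 had 16.96, 16.68 and 16.72 in 15EN and 15.84, 16.17 and 15.93 in VC (0.80 ± 0.21, adjusted p = 0.0204), and lost the call without 15EN replicate 1, VC replicate 1 or VC replicate 3. The other 14 had differences of 0.04 to 0.85 and adjusted p of 0.105 to 0.947. Among them H2BC13 (0.85 ± 0.34, adjusted p = 0.105) passed when blocked by passage number (adjusted p = 0.0312). Its groups overlapped, and it was dim in 2 of the VC arrays. Differences of H2BC9 (0.63), H2BC3 (0.52), H2BC11 (0.46), H2BC17 (0.41), H2BC4 (0.39), H2BC21 (0.37), H2BC14 (0.36), H2BC6 (0.33) and H2BC8 (0.32) were positive with overlapping groups, and H2BC7 (0.15) and H2BC10 (0.04) were near 0. H2BC17 and H2BC4 were dim in every array, and H2BC3 was dim in every VC array and in 1 of the 15EN arrays. H2BC5 varied widely within each group, from 11.23 to 12.40 in 15EN and from 11.21 to 12.36 in VC, and differed by 0.18 ± 0.37. H2BC1, a testis form, was dim throughout and differed by 0.18 ± 0.22.

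Of the 11 histone genes on chromosome 1, 9 were higher in 15EN (81.8%, against 12.3% of all genes), with a median of 0.82. Of the 48 on chromosome 6, 13 were higher (27.1%), with a median of 0.62. H2AC21 (0.30) and H2BC21 (0.37) were the chromosome 1 genes that did not pass. The difference between the chromosomes was not tested, and the 9 include the near copies H4C14 with H4C15 and H2AC18 with H2AC19. H2A and H2B genes often lie side by side and start back to back, so that the short stretch between them serves both. Pairs were sought only among genes with a RefSeq promoter sequence at hand. H2AC12 had none, so a pair with it would be missed and the counts may be incomplete. In the 8 pairs found with both genes measured, the starts lay 215 to 248 bases apart. Both genes were higher in 1, only the H2A gene was in 2 and neither was in 5. The pair in which both passed was H2AC25 and H2BC26, and its partners differed most, at 0.75 and 2.76. H2AC11 (1.05) and H2AC20 (0.82) passed beside H2BC11 (0.46, adjusted p = 0.299) and H2BC21 (0.37, adjusted p = 0.327), which did not. Among the H2B genes, the 14 with an octamer in the 250 bases had a median difference of 0.38. The 3 without it, H2BC5, H2BC13 and H2BC26, had differences of 0.18, 0.85 and 2.76.

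**Figure D4:**
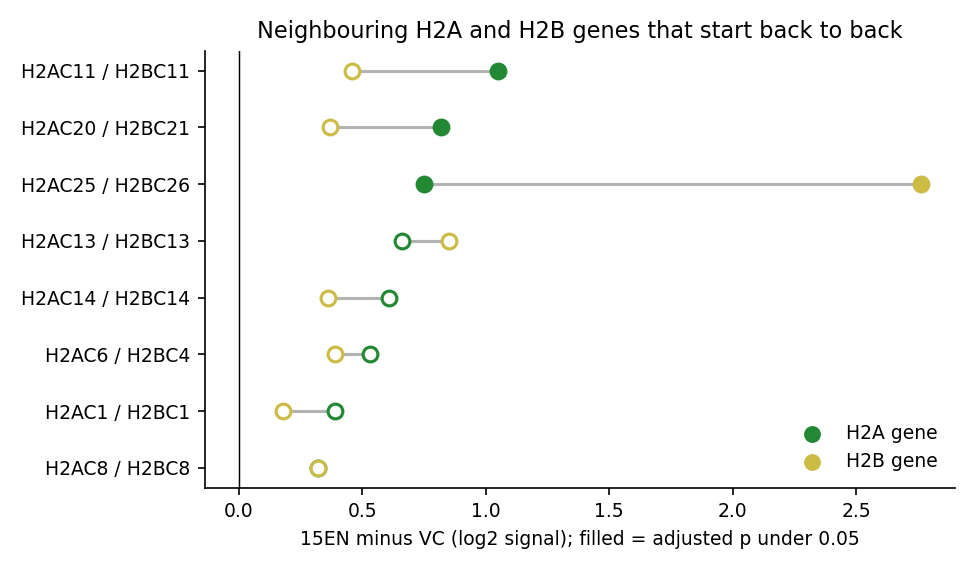
Difference 15EN minus VC in log2 signal (x axis) of the H2A and H2B genes (colours) of 8 pairs that start back to back; filled points passed adjusted p 0.05. Both genes of H2AC8 / H2BC8 lie at 0.32 and cover each other, and the widest gap is in H2AC25 / H2BC26 (0.75 and 2.76).

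Some histone genes are known to make polyadenylated mRNA as well, often in cells that have left the cycle. A list of 6 such genes was taken from textbook knowledge and may be incomplete. Of the 6 listed 1, H2BC12 (1.05), was higher (16.7%, near the 12.3% of all genes). H1-2 (0.86), H2AC6 (0.53), H2BC4 (0.39, dim in every array), H2BC21 (0.37) and H2BC5 (0.18) did not pass. The median of the 6 was 0.46, against 0.68 for all 60 histone genes. The difference was not tested and depends on which genes are listed.

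Of 21 measured genes of histone mRNA processing and of the histone locus body, 6 were higher and 2 lower (28.6% and 9.52%, against 12.3% and 9.09% of all genes), with a median of 0.10. Scaled to the hybridization controls, 16 were higher and 1 lower. ZNF473, a zinc finger protein of the U7 complex, had 11.18, 11.13 and 10.92 in 15EN against 9.65, 9.54 and 9.13 in VC, a rise of 1.64 ± 0.22 (adjusted p = 0.000856). CPSF3, the endonuclease that makes the cut, rose by 0.98 ± 0.22 (adjusted p = 0.00971), and MIF4GD, a partner of SLBP in translation, by 1.42 ± 0.32 (adjusted p = 0.0108) from a dim level in VC. ERI1, an exonuclease that trims and degrades the stem-loop end, had 11.07, 11.18 and 12.57 in 15EN against 13.57, 13.61 and 13.31 in VC, a difference of -1.89 ± 0.36 (adjusted p = 0.00476). SLBP had 8.22, 8.29 and 8.85 in 15EN against 9.47, 9.62 and 9.48 in VC (-1.07 ± 0.23, adjusted p = 0.00852, and -0.20, adjusted p = 0.509, after scaling to the hybridization controls). In both genes that fell, 15EN replicate 3 was the nearest to VC. NPAT differed by 0.05 ± 0.37 (adjusted p = 0.945) and CASP8AP2, a scaffold of the histone locus body, by -0.09 ± 0.21 (adjusted p = 0.819). The higher count was 3 or 4 without any 1 array other than 15EN replicate 3, and 9 without that array.

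Replication-independent histones, which are made outside S phase and replace the others, had 1 higher and 2 lower of 10 (10% and 20%, against 12.3% and 9.09% of all genes), with a median of -0.11. Scaled to the hybridization controls, 6 were higher and 1 lower. H3-3B, which encodes the replacement histone H3.3, had 16.07, 15.78 and 15.26 in 15EN against 14.17, 14.10 and 14.18 in VC, a rise of 1.55 ± 0.24 (adjusted p = 0.00172). The centromeric histone gene CENPA differed by -1.69 ± 0.23 (adjusted p = 0.000854) and H2AZ2 by -1.51 ± 0.25 (adjusted p = 0.00255), or by -0.64 (adjusted p = 0.0599) under that scaling. H2AZ1 differed by -0.70 ± 0.28 (adjusted p = 0.107) and, blocked by passage number, passed at adjusted p = 0.0415. H2AX (-0.02 ± 0.22, adjusted p = 0.973) and MACROH2A1 (-0.37 ± 0.21, adjusted p = 0.275) did not pass.

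Histone chaperones, importers and the acetyltransferase of new histones had 3 higher and 7 lower of 27 (11.1% and 25.9%, against 12.3% and 9.09% of all genes), with a median of -0.19. Scaled to the hybridization controls, 16 were higher and all 7 lower calls were lost. The importin IPO4 (1.01 ± 0.20, adjusted p = 0.00566), HAT1, which acetylates new H4 (0.97 ± 0.22, adjusted p = 0.0116), and SUPT6H, which travels with RNA polymerase II (1.04 ± 0.26, adjusted p = 0.0179), rose. SUPT6H lost the call without any 1 array other than 15EN replicate 3, and HAT1 without VC replicate 2 or 3. The H2A-H2B chaperone NAP1L4 (-1.30 ± 0.21, adjusted p = 0.00224), CABIN1 of the H3.3 chaperone complex HIRA (-1.29 ± 0.22, adjusted p = 0.00258) and CHAF1A, the large subunit of the replication-coupled chaperone CAF-1 (-1.08 ± 0.21, adjusted p = 0.00495), fell. Under that scaling these 3 did not pass, at -0.43 (adjusted p = 0.116), -0.42 (adjusted p = 0.158) and -0.21 (adjusted p = 0.409). Leaving out VC replicate 2 or 3 gave 1 higher and leaving out 15EN replicate 3 gave 5, and the lower count was 4 without 15EN replicate 2 or any VC array.

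Regulators of histone transcription at the G1/S transition had 3 higher and 6 lower of 17 (17.6% and 35.3%, against 12.3% and 9.09% of all genes), with a median of -0.35. Scaled to the hybridization controls, 7 were higher and 1 lower. CDKN1A, which encodes the CDK inhibitor p21, had 14.42, 15.51 and 14.98 in 15EN against 10.67, 12.83 and 12.87 in VC, a rise of 2.85 ± 0.53 (adjusted p = 0.00419). HINFP, a transcription factor of H4 genes, rose by 1.00 ± 0.24 (adjusted p = 0.0148), and lost the call when replicate 1 or 2 of either group was left out. RB1 rose by 0.94 ± 0.21 (adjusted p = 0.011), and CDK2, the kinase that activates NPAT, differed by -1.12 ± 0.21 (adjusted p = 0.00465). MYBL2 (-1.77 ± 0.26, adjusted p = 0.00122) and the CDK inhibitor CDKN1B (-0.95 ± 0.22, adjusted p = 0.0115) fell as well, while CDKN1B and RB1 lost the call without VC replicate 2. Under that scaling CDK2 (-0.25, adjusted p = 0.344) and CDKN1B (-0.08, adjusted p = 0.754) did not pass. Leaving out VC replicate 2 or 3 gave 3 lower, and leaving out VC replicate 2 gave 1 higher.

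The DNA replication machinery, whose genes are usually expressed in the same phase as the histones, had 3 higher and 9 lower of 44 (6.82% and 20.5%, against 12.3% and 9.09% of all genes), with a median of -0.19. Scaled to the hybridization controls, 24 were higher and 3 lower. TIMELESS (-1.88 ± 0.24, adjusted p = 0.000601) and CLSPN (-1.91 ± 0.31, adjusted p = 0.0022), which protect the replication fork, and RRM2, a subunit of ribonucleotide reductase (-1.84 ± 0.30, adjusted p = 0.00217), fell. RFC2, a clamp loader subunit (1.00 ± 0.22, adjusted p = 0.00866), TIPIN, the partner of TIMELESS (1.09 ± 0.29, adjusted p = 0.0225), and RPA2, a subunit of the single-strand binding complex (1.27 ± 0.34, adjusted p = 0.0231), rose. RPA2 was dim in every VC array and TIMELESS in every 15EN array. TIPIN lost the call without 4 of the arrays and RPA2 without 5, each apart from 15EN replicate 3, and RFC2 without VC replicate 2. The median of this list was 0.27, -0.49 and -0.38 in 15EN replicates 1, 2 and 3, relative to the VC mean, and 0.09, -0.13 and -0.00 in VC, whereas the histone genes stood at 0.86, 0.89 and 0.25 in 15EN and -0.19, 0.16 and 0.05 in VC. The lists thus differed in the order of the 15EN arrays, with replicate 1 alone above 0 for the replication genes. Leaving out single arrays gave 0 higher for VC replicate 2, 1 for VC replicate 3, 15EN replicate 1 or 15EN replicate 2, 2 for VC replicate 1 and 4 for 15EN replicate 3. The lower count was 5 when 15EN replicate 2, VC replicate 1 or VC replicate 2 was left out.

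**Figure D5:**
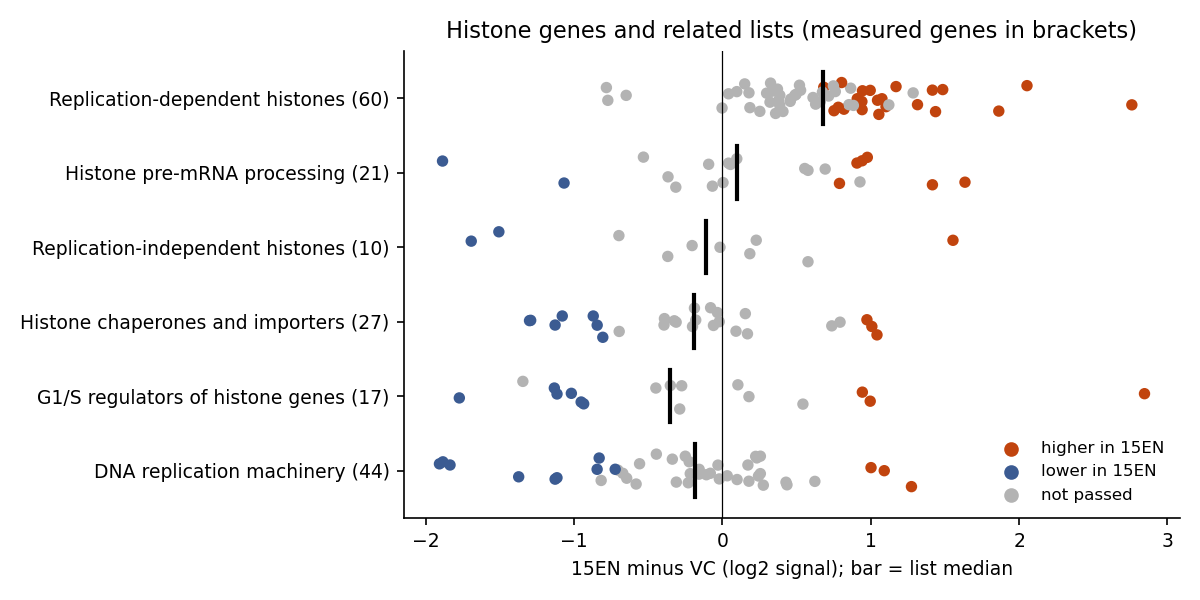
Difference 15EN minus VC in log2 signal (x axis) of every measured gene of the histone set and of 5 lists of histone production and DNA replication (rows), coloured by call; vertical bars are list medians. The histone genes have a median of 0.68 with 0 lower calls, and the other lists have medians from -0.35 to 0.10 with calls in both directions.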

How the data were processed

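Gene expression was measured with Affymetrix whole-transcript arrays of 1 colour from 100 ng of total RNA, in 3 samples labelled 15EN and 3 labelled VC. The values are log2 signals per probe set that the authors deposited. The Transcriptome Analysis Console is the tool named for them, per the submitters' processing notes. Its version is not given in the sources used here, nor is the normalization or the build. The log2 scale was judged from the values (2.20 to 18.82). Of 24351 probe sets, 2903 were controls, and 17709 of the other 21448 carried 1 gene symbol in the platform annotation (0 several, 3739 unnamed). All 17709 matched the RefSeq gene table (GRCh38.p14) by Entrez identifier. The highest-mean probe set was kept for each of 17687 genes. Of 69 protein-coding RefSeq genes that meet the symbol rule, 9 had no named probe set and were not analysed here. No 2 arrays held the same values.

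Each gene was tested by limma 3.58.1 under R 4.3.3 (linear fit and eBayes, group as the only term, two-sided, Benjamini-Hochberg over all 17687 genes, threshold 0.05). The fit was tried on simulated data whose noise was independent between arrays and, for each gene, equal in spread across them. That trial does not cover an array that stands apart, as 15EN replicate 3 did, or deviations shared by same-numbered arrays. The low number of arrays limits the precision. Same-numbered arrays share a passage by title and deviated together from their group means (correlations across genes 0.229, 0.162 and 0.133). For 15EN and VC arrays of different numbers the values were -0.138 to -0.0165. Deviations sum to 0 within a group, so these values are no independent baseline. The number was taken to pair the arrays, and the fit with it as a block is an alternative. Named genes are the 4 markers H1-4, H4C8, H2BC12 and H3C11, up to 4 called genes of smallest p per class, the gene of smallest p whose sign opposes its class median, up to 3 called genes per direction in each other list, and a fixed set of histone variants and locus factors. Of that set H3-3A was not analysed here. Other genes are named as part of a full account of their class. The members and lists were chosen with earlier results of these data known.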

Additional observations from a re-analysis of the deposited data

How the results depend on the processing

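With the replicate number as a block 25 histone genes were higher and 0 lower, the same 22 among them. Over all genes 2415 were then higher (13.7%) and 1788 lower. Besides the calls named in the text the block changed none among the named genes. The count of higher histone genes was 36 with array weights, which gave 15EN replicate 3 a weight of 0.295 and called 17.9% of all genes higher. It was 57 when arrays were set to equal hybridization controls (with 12150 genes higher, or 68.7%, and 437 lower in all). After that scaling the class medians were 1.73 for H1, 1.44 for H2A, 1.26 for H2B, 1.65 for H3 and 1.78 for H4. The values of H4C7 (0.87), CASP8AP2 (0.78) and H2AX (0.85) were then above 0 and passed, since a constant is added to each gene. The count of lower histone genes was 1 after quantile normalization, 2 after removal of a brightness trend and 1 with a trended robust prior. In all other alternatives that kept 6 arrays the higher count was 22 to 26, against 10.8% to 19.5% of the genes tested. When 1 array or both arrays of a number were left out it ran from 2 to 38 and the lower count from 0 to 1, over all genes 526 to 3227 were higher and 495 to 2240 lower, and class medians ran from 0.56 to 1.20 (H1), 0.50 to 0.82 (H2A), 0.25 to 0.64 (H2B), 0.69 to 0.95 (H3) and 0.67 to 1.19 (H4). The lowest counts came from 4 arrays, without replicate 1 or without replicate 2 (2 higher each), where fewer samples remain. The shares of all genes called higher were then 3.62% and 2.97%. Without dim probe sets 55 of the 60 genes were tested and 25 were higher, against 19.5% of the 11791 genes tested. H3C13 did not pass after quantile normalization (0.65, adjusted p = 0.0592) or removal of a brightness trend (0.62, adjusted p = 0.0683), nor H3C3 with a trended robust prior (adjusted p = 0.0665). The 8 histone genes dim in every array (median 0.39, 0 called by limma, 0 at an unadjusted p under 0.05) carry little signal, and genes of a class resemble each other closely enough for probes to be shared.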
